A study of Mus musculus with 2 samples.

Results

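The genes described here encode core proteins of the spliceosome and the RNA-binding proteins that steer it. They are the rows whose symbol begins with Snrp, Sf3a, Sf3b, Srsf, Hnrnp or Prpf, or with Lsm and a digit, which gave 76 of the 15576 genes in the table. By these names they fall into 11 Snrp, 9 Sf3, 13 Lsm, 10 Srsf, 20 Hnrnp and 13 Prpf genes. Expression was measured by RNA sequencing in macrophages of wild-type mice, grown in culture from progenitors of the bone marrow. One group, DCA, received 100 µM deoxycholic acid, a bile acid made by gut bacteria, for 24 h, and the other, NC, did not. Each group is 1 library, with 56.6 × 1e6 reads for DCA and 59.2 × 1e6 for NC, and neither the vehicle, the number of animals nor any pooling is given in the sources used here. With 1 library per group there is no replicate check and no statistical test, so every difference is one between these libraries and cannot be set against the spread between cultures.

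Introns are removed from pre-mRNA by the spliceosome, which is built anew on each intron from small nuclear ribonucleoproteins (snRNPs), particles of a small nuclear RNA and proteins. A ring of Sm proteins surrounds the RNA of the U1, U2, U4 and U5 particles, and a ring of LSm proteins the end of U6. The SF3a and SF3b proteins hold the U2 particle on the branch point, and many PRPF proteins belong to the U4/U6.U5 tri-snRNP or to the complex that activates it. SR proteins, named after their stretches of serine and arginine, bind exons and mostly favour their inclusion, while heterogeneous nuclear ribonucleoproteins (hnRNPs) coat nascent transcripts and often favour skipping. In macrophages, these factors take part in processing the transcripts of inflammatory genes.

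The splicing factor transcripts lay close together in the DCA and NC libraries. Of the 76 genes, 74 had a mean of at least 1 FPKM (fragments per kilobase of gene and 1e6 reads) and entered the counts, and Lsm7 and Prpf40b lay below it. Genes were compared by how far log2(FPKM + 1) in DCA lay above or below that in NC, a scale that understates the change of low genes. On this scale 69 of the 74 genes (93.2%) were less than 1.1-fold apart, against 86.2% of all 9656 genes past the filter, and 52 (70.3%) were less than 1.05-fold apart, against 61.2%. The splicing factor genes had more reads than most, with a median of 5972 per gene and library against 2864 for all genes, and differences are smaller where reads are many. The median size of the difference, whatever its sign, was 0.048, against 0.054 for all genes. Among genes with at least 2500 reads it was 0.040 for the 50 splicing factor genes and 0.044 for all 5303.

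Direction was also near that of all genes. FPKM was higher in DCA for 42 of the 74 genes (56.8%), and for 53.5% of all genes. The median difference was 0.015, against 0.0067 for all genes. Past 1.1-fold on the higher side were 4 genes, Lsm3, Lsm1, Sf3b6 and Snrpg, where 8.99% of all genes were. Past it on the lower side was 1 gene, Snrpf, where 4.79% of all genes were. Just inside this limit lay Snrpd2, Prpf6 and Lsm14b, with differences of 0.13, 0.13 and -0.13. The deposited FPKM could be turned back into reads, whole for most genes and rounded for the others. These reads give each gene a ratio of DCA to NC with a 95% interval (exact Clopper-Pearson). Such an interval covers counting error alone, and reads copied by PCR are not independent molecules. It lay above 1 for 22 of the 74 genes, where that held for 25.7% of all genes, and below 1 for 11, where it held for 20.0%.

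**Figure D1:**
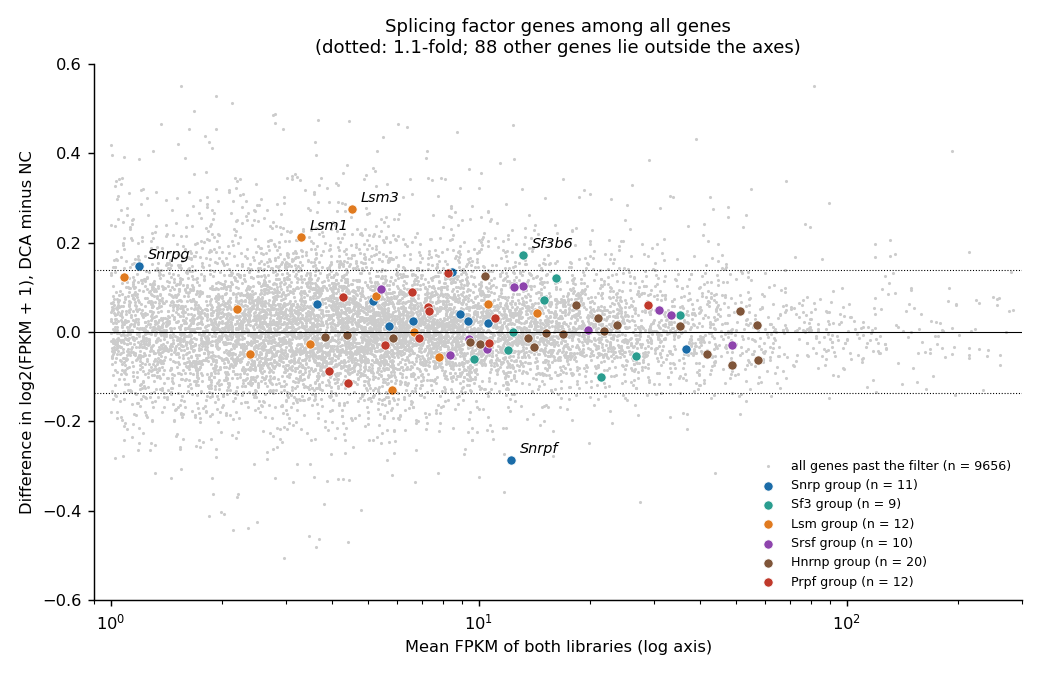
Difference in log2(FPKM + 1), DCA minus NC, against the mean FPKM of both libraries (log axis), with each point a gene. Coloured points are the 74 splicing factor genes past the filter, grey points all 9656 genes past it, and dotted lines mark 1.1-fold; 5 coloured points lie beyond them, Lsm3, Lsm1, Sf3b6 and Snrpg above and Snrpf below.

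Other values of the same libraries stood beside these differences. Macrophage genes, against which the label of the cells was checked, were present. Csf1r, the M-CSF receptor, had 90.2 FPKM with DCA against 92.3 without, and Lyz2, a lysozyme gene, had 9803 and 9669. Of 14 macrophage markers 3 were higher in DCA. Their summed FPKM was 10940 in DCA and 10852 in NC, most of it Lyz2, and the other 13 summed to 1137 and 1183. All 14 neutrophil markers (4241 and 3585) and 7 of the 8 B-cell markers past the filter (185 and 151 over 10 markers) were higher, and none of these 3 lists had a marker at 0. Of 19 markers of dividing cells 8 were higher (419 and 425), of the 6 eosinophil markers past the filter all (120.6 and 83.5 over 8 markers), and none of 8 erythroid markers passed the filter. Of the mast cell and basophil markers past the filter 7 of 8 were higher (62.0 and 55.9 over 9 markers). Of the dendritic cell markers 4 of 5 were (41.4 and 34.8 over 9 markers). In a bulk sample, fewer cells of a type and less RNA per cell cannot be told apart. Splicing factors are made by all of these cell types, and the part of the cell mixture in the differences below was not tested.

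Promoters are shown for 4 of the 5 genes beyond 1.1-fold, because they let the sequence of the genes with the widest differences be set side by side. The windows run from 250 bases before to 50 after the annotated start (RefSeq, GRCm38.p6), each read 5′ to 3′ along its gene, and RefSeq windows were matched for 63 of the 74 genes. These starts lie 107 (Lsm3), 64 (Sf3b6), 236 (Snrpg) and 48 (Snrpf) bases from the 5′ ends of the genes in the GENCODE annotation. Capitals mark matches, on either strand, to CCGGAAG (the core of ETS factor sites), GCGCATG (part of the NRF1 site), CCAAT (the CCAAT box), CACGTG (the E-box), GGGCGG (the GC box) and AAGATGG (part of the YY1 site). Lsm3 lies at chr6:91515785-91516084 on the plus strand, Sf3b6 at chr12:4817358-4817657 on the plus strand, Snrpg at chr6:86371290-86371589 on the plus strand and Snrpf at chr10:93589609-93589908 on the minus strand.
Lsm3: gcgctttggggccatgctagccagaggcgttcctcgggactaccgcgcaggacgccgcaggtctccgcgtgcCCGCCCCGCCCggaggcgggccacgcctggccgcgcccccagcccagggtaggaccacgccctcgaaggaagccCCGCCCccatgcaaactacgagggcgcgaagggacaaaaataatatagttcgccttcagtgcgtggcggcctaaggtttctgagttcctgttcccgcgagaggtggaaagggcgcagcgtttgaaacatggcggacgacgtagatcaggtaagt
Sf3b6: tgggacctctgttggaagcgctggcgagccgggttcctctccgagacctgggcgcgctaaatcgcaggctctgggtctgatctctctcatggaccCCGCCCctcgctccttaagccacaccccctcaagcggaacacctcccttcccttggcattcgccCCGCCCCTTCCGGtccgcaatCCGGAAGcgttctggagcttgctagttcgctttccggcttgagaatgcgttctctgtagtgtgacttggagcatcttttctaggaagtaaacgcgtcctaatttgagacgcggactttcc
Snrpg: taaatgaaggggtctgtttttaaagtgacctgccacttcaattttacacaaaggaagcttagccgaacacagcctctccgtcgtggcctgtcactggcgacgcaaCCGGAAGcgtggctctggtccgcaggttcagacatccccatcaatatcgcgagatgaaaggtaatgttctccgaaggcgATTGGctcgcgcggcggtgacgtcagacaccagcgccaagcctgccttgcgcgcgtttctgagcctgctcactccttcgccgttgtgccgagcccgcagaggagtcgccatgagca
Snrpf: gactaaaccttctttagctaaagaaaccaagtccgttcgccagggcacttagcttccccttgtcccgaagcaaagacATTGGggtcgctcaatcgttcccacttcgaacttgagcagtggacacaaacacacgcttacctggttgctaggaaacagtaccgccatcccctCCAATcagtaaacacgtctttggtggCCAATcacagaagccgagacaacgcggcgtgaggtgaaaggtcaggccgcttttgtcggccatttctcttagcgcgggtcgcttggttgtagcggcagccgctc
The Lsm3 window held 3 GC boxes, of which a pair shares a base. Sf3b6 held 2 GC boxes and 2 ETS cores, Snrpg an ETS core and a CCAAT box, and Snrpf 3 CCAAT boxes and none of the other motifs. The ETS core was common to Sf3b6 and Snrpg, and no motif to all 3 higher genes shown.

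Over the 63 promoters, the ETS core was present in 20 (31.7%), against 21.3% of 7772 promoters of genes past the filter. It was found in 6 of the 7 Sf3 promoters, 4 of 9 Snrp, 4 of 10 Srsf, 3 of 10 Prpf, 2 of 18 Hnrnp and 1 of 9 Lsm promoters. The CCAAT box was found in 31 of the 63 (49.2%), against 39.7% of all, with 12 of 18 Hnrnp, 5 of 9 Lsm, 5 of 10 Prpf, 4 of 10 Srsf, 3 of 9 Snrp and 2 of 7 Sf3 promoters. The GC box was present in 69.8% of the splicing factor promoters and 66.3% of all, and the E-box in 11.1% and 10.8%. The part of the NRF1 site was found in 9.52% against 7.96%, and that of the YY1 site in 4.76% against 8.08%. A match of letters is a description of the window, not evidence of a bound site.

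The Snrp group holds the Sm ring proteins and proteins of the U1 and U2 particles. In it 9 of 11 genes were higher in DCA, beside 53.5% of all genes, at a median ratio of 1.02 with quartiles of 1.01 and 1.06, yet the counting interval excluded 1 for 1 gene on each side. The difference in single Sm ring genes ran both ways. Snrpf, whose SmF protein sits in every Sm ring (ENSMUSG00000020018, GRCm38 chromosome 10, 93583029 to 93589706, minus strand), measured 10.9 FPKM with DCA against 13.5 without, from 531 and 689 reads, a ratio of 0.807 (95% interval 0.719 to 0.905). This was the lowest ratio of the 76 genes. Of the 861 exonic bases of Snrpf, 735 (85.4%) also lie in exons of other annotated genes, Ccdc38 and 4933408J17Rik. The overlapping gene with values in the table had 147 reads with DCA and 191 without, and its reads together with those of Snrpf gave 0.806 (0.728 to 0.892), as low as Snrpf alone. The sources used here do not say how reads in the shared bases were counted.

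At the other end, Snrpg (SmG) had 1.31 FPKM with DCA against 1.08 without, but from 187 and 162 reads, and its ratio of 1.21 (0.974 to 1.5) included 1. Snrpd2 (SmD2) had 8.87 and 8.0 FPKM, a ratio of 1.11 (1.03 to 1.199), which was the sole Snrp gene with an interval above 1. Snrpe (SmE) had 5.30 and 5.0 FPKM, a ratio of 1.06 (0.962 to 1.17). The other D proteins were nearer to 1, with Snrpd1 at 10.7 and 10.5 FPKM, a ratio of 1.02 (0.951 to 1.08), and Snrpd3 at 9.41 and 9.24, also 1.02 (0.960 to 1.08). Snrpb, which encodes SmB and has the most reads of the ring (9015 and 9692), had 36.0 and 37.0 FPKM, a ratio of 0.973 (0.946 to 1.002). The FPKM of Snrpb did not turn back into whole reads, so its reads, interval and level are approximate. The ring genes lay on both sides of 1, and their summed reads numbered 15927 with DCA against 16768 without, a ratio of 0.994. Snrpn, the neuronal form of SmB, is no row of the table under that symbol.

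The 4 genes for proteins of single particles lay on the higher side and close together, each with an interval that included 1. Snrpc, a U1 protein at the 5′ splice site, had 3.73 FPKM with DCA against 3.53 without, a ratio of 1.06 (0.993 to 1.12). Snrpa, the U1 protein that binds a stem-loop of U1 RNA, was at 6.71 and 6.58, a ratio of 1.02 (0.968 to 1.07). The U2 proteins Snrpb2 and Snrpa1, which bind U2 RNA as a pair, had 9.03 and 8.74 FPKM and 5.74 and 5.68 FPKM. Their ratios were 1.03 (0.981 to 1.09) and 1.01 (0.955 to 1.07). Differences of this size were not detectable at the depth of these genes.

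Levels of different genes can be compared only per length, and the length behind the deposited FPKM sums all annotated transcripts of a gene, which lowers the FPKM of genes with many. Reads per kilobase of the merged exons and 1e6 reads were therefore used for levels. On that scale Snrpb stood at 80.6 in DCA and 82.8 in NC, far above the other ring genes. Snrpd1 (15.5 and 15.3), Snrpd3 (11.3 and 11.1), Snrpe (11.03 and 10.4), Snrpf (10.9 and 13.5) and Snrpd2 (8.99 and 8.11) were neighbours, and Snrpg was lowest at 2.11 and 1.74. The highest level was 38.3 times the lowest in DCA and 47.5 times in NC, and Snrpf stood above Snrpd3 and Snrpe in NC and just below them in DCA. Snrpg, Snrpd1, Snrpd2, Snrpe and Snrpf each have at least 1 near-identical copy of their coding sequence elsewhere in the annotation (at least 95% identity over at least 80% of its length), and Snrpg has 4. None of the copies has a value in the table, and since the treatment of reads that fit several places is not known here, the levels of these genes are uncertain.

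**Figure D2:**
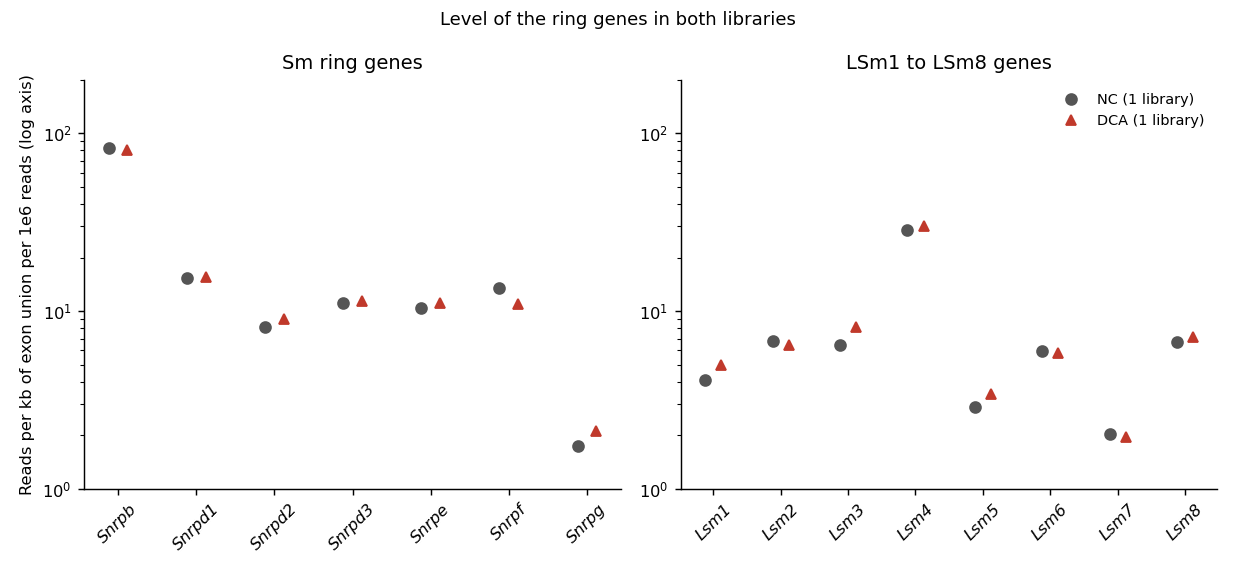
Reads per kilobase of merged exons and 1e6 reads (log axis) of the 7 Sm ring genes and the genes Lsm1 to Lsm8 in the NC library (circles) and the DCA library (triangles), 1 library each. The symbols of a gene lie close together on this axis, farthest apart for Lsm3, Lsm1, Snrpg and Lsm5, higher in DCA, and Snrpf, lower in DCA, while the genes differ from one another by up to 47.5 times.

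The Lsm genes held the widest differences on the higher side. LSm2 to LSm8 form the ring on U6 RNA in the nucleus, and LSm1 takes the place of LSm8 in a cytoplasmic ring that acts in mRNA decay. Lsm3 (ENSMUSG00000034192, chromosome 6, 91515928 to 91522625, plus strand), a member of both rings, had 5.05 FPKM with DCA against 4.0 without, from 1261 and 1046 reads. Its ratio was 1.26 (1.16 to 1.37), the highest of the 76 genes, and 6.32% of its exonic bases lie in exons of another annotated gene without a value in the table. Lsm1 (ENSMUSG00000037296, chromosome 8, 25785288 to 25803975, plus strand), which marks the decay ring, had 3.60 and 2.97 FPKM, from 872 and 753 reads, a ratio of 1.21 (1.098 to 1.34). Lsm8, which marks the nuclear ring, had 5.45 and 5.10 FPKM, a ratio of 1.07 (0.998 to 1.14), so that the intervals of Lsm1 and Lsm8 overlapped.

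Lsm3 had the highest ratio of the genes described here, so its partners in both rings lay lower by that choice. Their gaps to Lsm3 are therefore no evidence of a difference between subunits. Lsm4 had 10.9 and 10.4 FPKM, a ratio of 1.05 (0.981 to 1.12). Lsm2 (2.34 and 2.45 FPKM) and Lsm6 (3.43 and 3.51) lay on the lower side, at 0.953 (0.879 to 1.03) and 0.976 (0.905 to 1.05), and for all 3 the interval ended below the lower bound of Lsm3. Lsm5 and Lsm7 rested on few reads, 153 against 136 and 177 against 194, and their ratios of 1.18 (0.928 to 1.49) and 0.955 (0.774 to 1.18) say little at this depth. Of the 7 ring genes past the filter 5 were higher in DCA, beside 53.5% of all genes, and the middle ratio of the 7 was 1.07 (quartiles 1.01 and 1.19). The interval lay above 1 for 2 of them, where that held for 25.7% of all genes, and included 1 for 5.

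Outside these rings, Lsm10 and Lsm11, which replace SmD1 and SmD2 in the U7 particle that trims histone mRNAs, lay on opposite sides of 1. Lsm10 had 7.62 FPKM with DCA against 7.95 without, a ratio of 0.958 (0.874 to 1.05), and Lsm11 2.26 and 2.14, a ratio of 1.05 (0.968 to 1.15). Lsm14b, which belongs to a family of mRNA-storage proteins, had 5.50 and 6.12 FPKM, a ratio of 0.90 (0.845 to 0.959), the lowest of the group. Its paralogue Lsm14a, a processing-body protein, had 14.6 and 14.2 FPKM, a ratio of 1.03 (1.004 to 1.06), and the intervals of the pair did not overlap. Lsm12 was at 6.68 and 6.69 FPKM, a ratio of 0.9996 (0.942 to 1.06). Over the 12 Lsm genes past the filter 7 were higher, beside 53.5% of all genes, at a median ratio of 1.04 with quartiles of 0.971 and 1.096. The interval lay above 1 for 3 and below 1 for 1, where that held for 25.7% and 20.0% of all genes. The Lsm group had the fewest reads, a median of 1297 per gene and library.

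Of the 9 Sf3 genes, which encode the U2 proteins that clasp the branch point, 5 were higher in DCA as deposited and 4 after scaling the libraries to equal FPKM sums or to the median ratio of all genes, and the median ratio was 1.001 (interquartile range 0.961 to 1.05). The counting interval lay above 1 for 4 of these genes and below for 2, where that held for 25.7% and 20.0% of all genes. Sf3b6, whose protein p14 touches the branch-point adenosine (ENSMUSG00000037361, chromosome 12, 4817544 to 4827659, plus strand), had 14.0 FPKM with DCA against 12.3 without, from 3335 and 3069 reads, a ratio of 1.14 (1.08 to 1.19). Sf3a3 had 16.9 and 15.5 FPKM, a ratio of 1.09 (1.04 to 1.15), Sf3b3 15.5 and 14.7, a ratio of 1.05 (1.03 to 1.08), and Sf3b1, the scaffold of SF3b, 35.6 and 34.6, a ratio of 1.03 (1.01 to 1.04). Lower in DCA were Sf3b4, at 20.7 and 22.2 FPKM, a ratio of 0.930 (0.883 to 0.979), and Sf3b2, at 26.1 and 27.2, a ratio of 0.961 (0.941 to 0.981). Subunits of SF3b, which act in 1 complex, thus lay on both sides of 1. Sf3b5 (9.47 and 9.91 FPKM), Sf3a2 (11.8 and 12.2) and Sf3a1 (12.4 in both) had ratios of 0.956, 0.970 and 1.001, each with an interval that included 1.

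The SR protein genes had many reads, a median of 13916 per gene and library, and narrow intervals. Of the 10 Srsf genes 6 were higher in DCA (5 after either of those scalings). The interval lay above 1 for 5 and below 1 for 2, where that held for 25.7% and 20.0% of all genes. The median ratio was 1.02 (interquartile range 0.982 to 1.07), and no gene reached 1.1-fold. The highest were 3 genes with nearly the same ratio. Srsf3, the smallest of the classical SR proteins, had 13.7 FPKM with DCA against 12.7 without, a ratio of 1.08 (1.05 to 1.11). Srsf7, an SR protein with a zinc knuckle that also acts in mRNA export, had 12.9 and 12.0 FPKM, a ratio of 1.08 (1.05 to 1.11). Srsf4 had 5.65 and 5.22 FPKM, a ratio of 1.08 (1.02 to 1.15), and 43.0% of its exonic bases lie in exons of another gene.

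Srsf1, the founding SR protein, had 33.8 and 32.9 FPKM, a ratio of 1.03 (1.01 to 1.05), and Srsf6 31.4 and 30.3, a ratio of 1.04 (1.01 to 1.06). Srsf2, an SR protein of exonic enhancers and the highest Srsf gene per length (121 reads per kilobase and 1e6 reads in DCA, 123 in NC), had 48.1 and 49.1 FPKM, a ratio of 0.980 (0.961 to 0.999). Srsf11, at 10.4 and 10.7 FPKM, had 0.971 (0.949 to 0.994), and Srsf9, at 8.20 and 8.54, had 0.960 (0.910 to 1.01). Srsf5 was at 19.8 FPKM in both libraries and Srsf10, an SR protein known as a repressor after heat shock, at 9.37 and 9.49, with ratios of 1.003 (0.984 to 1.02) and 0.987 (0.959 to 1.02). The Srsf ratios ran from 0.960 to 1.08, and their widest step lay between Srsf6 and Srsf7. Many SR genes can make transcripts with a poison exon that are degraded, and the summed reads of a gene do not separate these.

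The hnRNP genes showed the smallest spread. The SD of the difference was 0.045 over the 20 Hnrnp genes, against 0.082 over all 74 genes, 0.060 over the Srsf genes and 0.115 over each of the Snrp and Lsm groups. The median number of reads per gene and library was 15851, the highest of the 6 groups. FPKM was higher in DCA for 8 of 20, beside 53.5% of all genes, and the median ratio was 0.996 (interquartile range 0.982 to 1.01). Hnrnpc, which binds uridine tracts in nascent RNA (ENSMUSG00000060373, chromosome 14, 52073377 to 52104028, minus strand), lay apart from the rest, with 10.9 FPKM with DCA against 9.89 without from 13139 and 12511 reads, a ratio of 1.099 (1.07 to 1.1264). The next gene was Hnrnpa1, an abundant repressor of exons, at 18.8 and 18.0 FPKM and a ratio of 1.04 (1.02 to 1.07), followed by the scaffold gene Hnrnpu at 52.1 and 50.4 and a ratio of 1.03 (1.02 to 1.05).

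At the lower end, Hnrnpa0, a gene with a single annotated transcript, had 47.4 FPKM with DCA against 49.97 without, a ratio of 0.948 (0.918 to 0.979). Hnrnpab had 56.0 and 58.6 FPKM, a ratio of 0.956 (0.937 to 0.975), with 29.1% of its exonic bases in exons of another gene. Hnrnpul2 was at 41.0 and 42.5 FPKM, with 0.966 (0.946 to 0.985). Hnrnpa2b1, which with 62231 and 64452 reads has the most reads of the 76 genes, had 57.4 and 56.8 FPKM, a ratio of 1.01 (0.999 to 1.02). Hnrnpk (9.37 and 9.53 FPKM), Hnrnpl (15.2 and 15.3) and its paralogue Hnrnpll (5.79 and 5.86), which alters splicing of the CD45 gene in lymphocytes, had ratios of 0.983 (0.965 to 1.002), 0.998 (0.977 to 1.02) and 0.988 (0.956 to 1.02). Per length the highest levels of all 76 genes were those of Hnrnpf (169 in DCA, 167 in NC) and Hnrnpa2b1 (167 and 165), which stood close together. Hnrnpf shares 26.5% of its exonic bases with other genes and has 4 near-identical copies in the annotation, so its level is uncertain. The remaining 9 Hnrnp genes lay between 0.976 for Hnrnph2 and 1.02 for Hnrnpul1. For 13 of the 20 genes the interval included 1. It lay above 1 for 4 and below 1 for 3, where that held for 25.7% and 20.0% of all genes.

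The Prpf group, with 7 of 12 genes past the filter higher in DCA, stood at a median ratio of 1.03 with quartiles of 0.981 and 1.05. Its intervals lay above 1 for 5 genes and below for 2, beside 25.7% and 20.0% of all genes. Prpf6, a tri-snRNP protein that bridges U5 and U4/U6, had 8.69 FPKM with DCA against 7.84 without, a ratio of 1.11 (1.06 to 1.16). Prpf8, the core of U5 and of the catalytic centre, had 29.4 and 28.2 FPKM from 31230 and 31305 reads, a ratio of 1.04 (1.03 to 1.06). Prpf18, a second-step factor, had 6.82 and 6.35 FPKM, a ratio of 1.07 (1.03 to 1.12), and Prpf19, the ubiquitin ligase that names its complex, 7.44 and 7.12, a ratio of 1.04 (1.01 to 1.08). The U4/U6 protein genes lay on the lower side, with Prpf3 at 3.76 and 4.06 FPKM, a ratio of 0.926 (0.880 to 0.975), Prpf4 at 6.82 and 6.90, a ratio of 0.989 (0.934 to 1.05), and Prpf31 at 5.51 and 5.64, a ratio of 0.977 (0.935 to 1.02). The lowest was Prpf39, a U1-associated factor, with 4.19 and 4.61 FPKM and a ratio of 0.908 (0.876 to 0.940). Of its exonic bases 5.01% lie in exons of Fkbp3, which had 2832 reads with DCA and 2588 without. Fkbp3 alone had a ratio of 1.15 (1.09 to 1.21). The reads of both genes together gave 0.973 (0.945 to 1.002). This value mixes opposite differences of genes that share few bases, so it does not bear on Prpf39 alone. Genes for proteins of the same tri-snRNP thus lay on both sides of 1.

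Prpf40b, a U1-associated protein below the filter at 0.335 and 0.349 FPKM, had 0.961 (0.853 to 1.08). Prpf38a and Prpf38b had 1.07 (0.997 to 1.15) and 1.02 (0.996 to 1.05), and the kinase gene Prpf4b had 0.982 (0.958 to 1.01).

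**Figure D3:**
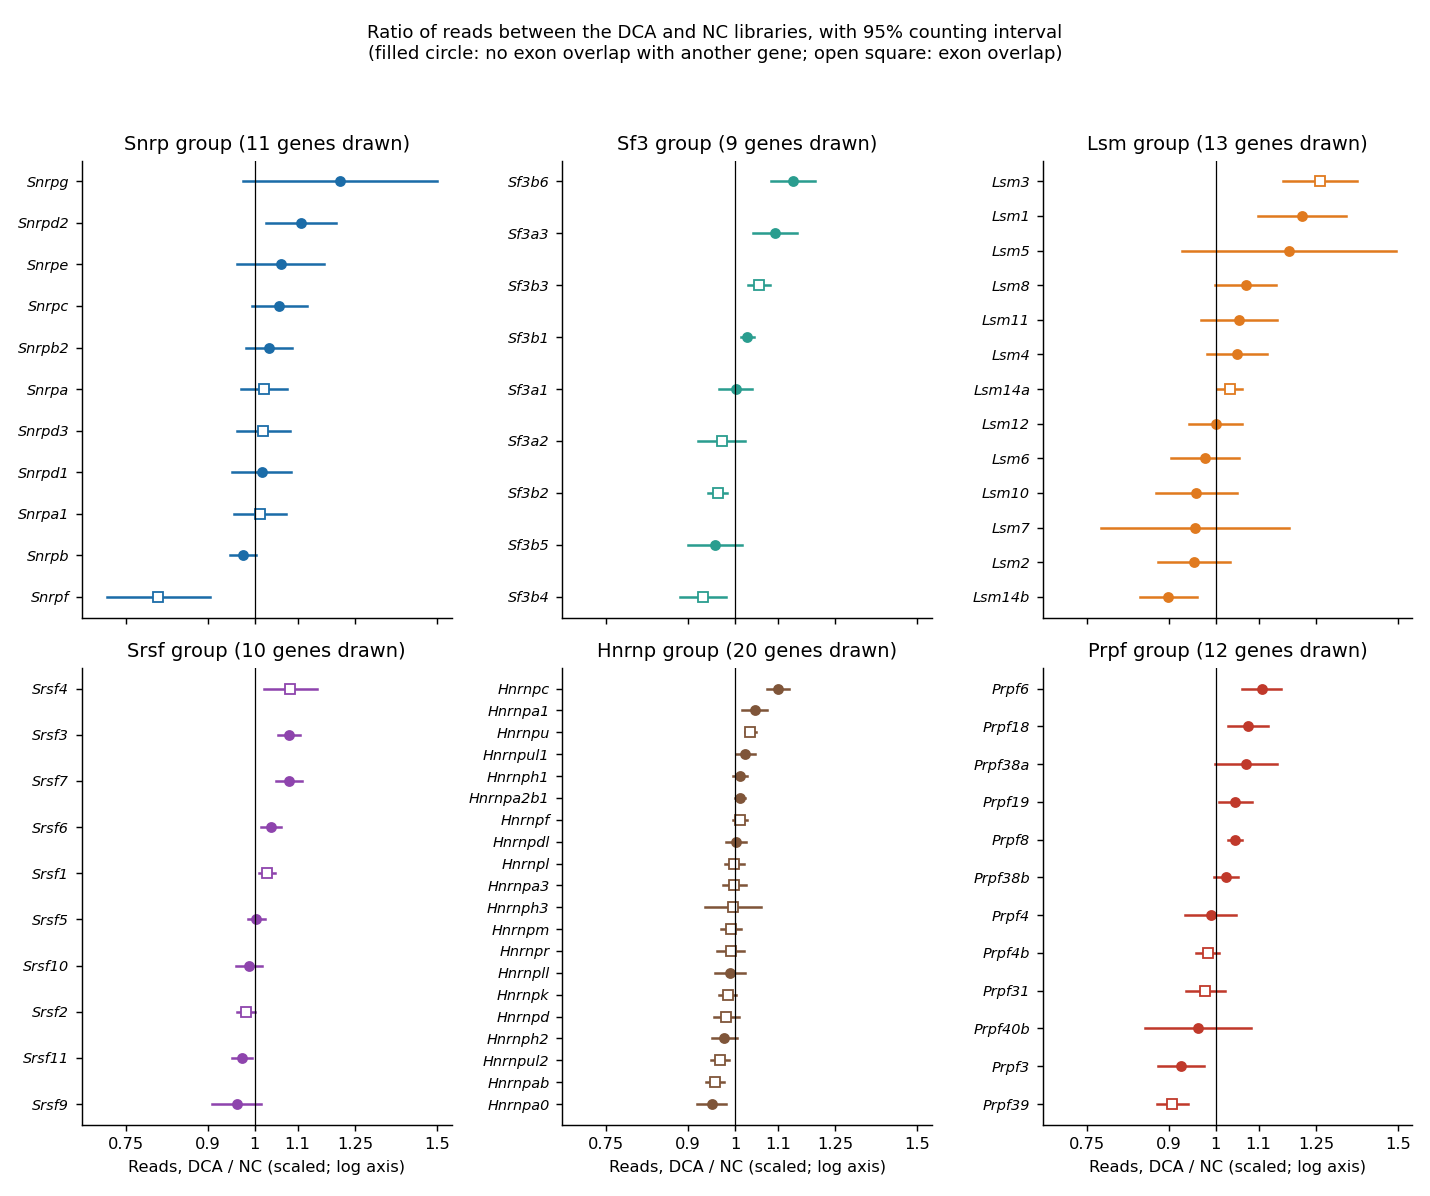
Ratio of reads, DCA over NC, scaled to the read totals (log axis), for 75 of the 76 genes by group, with bars for the 95% counting interval and no replicates. Open squares are genes with exons shared with another gene and filled circles those without; the Snrp and Lsm groups spread from 0.807 to 1.26 with wide bars, and the Hnrnp genes lie between 0.948 and 1.099 with narrow ones.

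Set beside one another, the groups differed little in their medians and more in their spread. Median ratios ranged from 0.996 for Hnrnp and 1.001 for Sf3, through 1.02 for Snrp and Srsf and 1.03 for Prpf, to 1.04 for Lsm, where all genes had 1.01. The interquartile ranges overlapped except those of Snrp (from 1.013) and Hnrnp (up to 1.011), which came close without meeting, and that of all genes ran from 0.963 to 1.06. In every group the median difference in log2(FPKM + 1) moved by over 1.5 times or changed sign under at least 1 alternative. For Prpf this was only the mean in place of the median. No test of these group differences is possible with 1 library per group. Groups with fewer reads per gene spread more. The 24 genes with fewer than 2500 reads had a median size of difference of 0.062, against 0.040 for the 50 with more, and in all genes these values were 0.072 and 0.044.

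**Figure D4:**
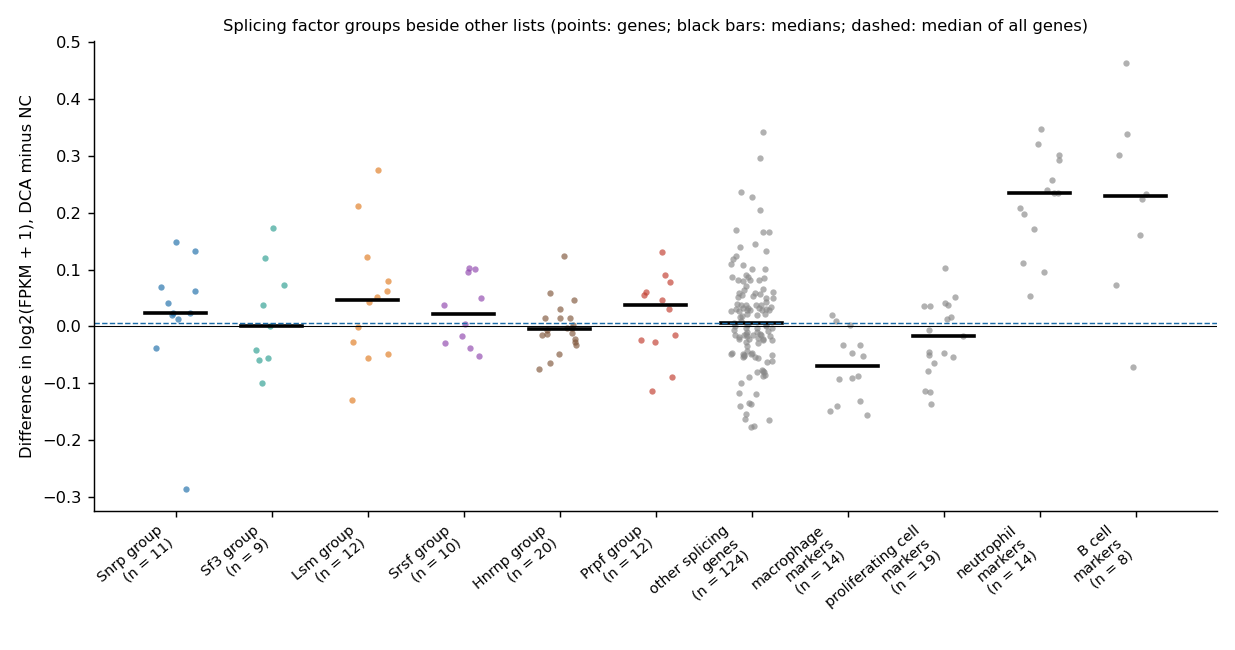
Difference in log2(FPKM + 1), DCA minus NC, of each gene (points) with the median (black bar) for the 6 splicing factor groups, the other splicing genes and 4 lists of cell markers; the dashed line is the median of all genes, 0.0067. Medians of the splicing factor groups lie between -0.0049 and 0.047, and those of the neutrophil and B-cell markers at 0.234 and 0.229.

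Splicing factor genes with and without shared exons differed in direction in these libraries. Of the 74 genes, 27 (36.5%) share exonic bases with another annotated gene, near the 37.5% of all genes. Among these 27 genes 10 were higher in DCA and the median ratio was 0.990, and among the other 47 genes 32 were higher (68.1%), with a median ratio of 1.03. Over all genes 53.5% were higher, and over those without such overlap 53.8%, so the table as a whole did not show this split. In the Prpf group 0 of 3 overlapping genes and 7 of 9 others were higher, while in the Lsm group both overlapping genes and 5 of 10 others were. Of the Hnrnp genes 2 of 11 overlapping ones and 6 of 9 others were higher, and the median difference of this group turned from -0.0049 to 0.015 once overlapping genes were left out. The part of shared exons in these values was not tested.

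Transcription start sites offer a comparison within a locus. Of the 74 genes, 17 (23.0%) have a protein-coding neighbour that is read away from them from a start within 1000 bases, against 11.4% of 9626 protein-coding genes past the filter. Starts are here the 5′ ends of the genes in the GENCODE annotation, not the RefSeq starts of the promoter windows. Described here are 12 pairs whose neighbour passed the filter as well. Lsm3 starts 40 bases from Xpc, a DNA repair gene, which had 5.07 FPKM with DCA against 5.09 without, a ratio of 0.995 (0.941 to 1.05), beside 1.26 for Lsm3. Lsm1 starts 1 base from Bag4, a co-chaperone gene, which had 3.54 and 3.55 FPKM, a ratio of 0.997 (0.930 to 1.07), beside 1.21 for Lsm1. In both loci the intervals of the neighbours did not overlap. Lsm3 and Lsm1 had the highest ratios of the genes described here, so lower ratios in their neighbours were likely beforehand.

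Intervals were also apart for Hnrnpa1 and Cbx5, a heterochromatin protein gene at 0.981 (0.957 to 1.005), and for Srsf11 at 0.971 and Lrrc40 at 1.102 (1.04 to 1.17). In the remaining 8 pairs the intervals overlapped, among them Snrpd2 with Qpctl at 0.974 (0.893 to 1.06), and Hnrnpa2b1 with Cbx3 at 0.997 (0.954 to 1.04). How often intervals are apart over all divergent pairs of the table was not counted. The number of such pairs here is therefore no trait of splicing factor genes.

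**Figure D5:**
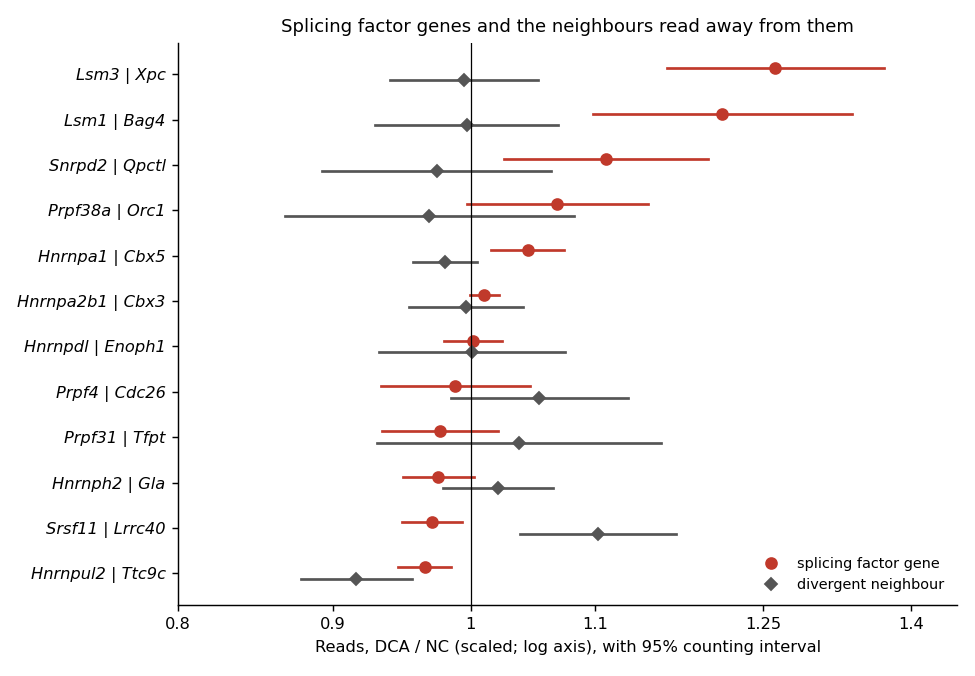
Ratio of reads, DCA over NC (log axis), for 12 splicing factor genes (circles) and the protein-coding neighbour read away from each (diamonds), with 95% counting intervals and 1 library per group. The circles of Lsm3 and Lsm1 lie at 1.26 and 1.21 and their neighbours Xpc and Bag4 at 0.995 and 0.997.

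Other genes of the splicing pathway, from a list of 130 symbols that the name rule does not take, lay near the table as a whole. The list was written with earlier results of these data known, and 129 of its symbols were found, in 130 rows. Of the 124 rows past the filter 67 (54.0%) were higher in DCA, and the median ratio was 1.004 (interquartile range 0.967 to 1.05). Past 1.1-fold were 10 on the higher side (8.06%) and 6 on the lower (4.84%), near the 8.99% and 4.79% of all genes. The highest differences were those of Zmat5, a protein of the minor U11/U12 particle, with 7.40 FPKM with DCA against 5.63 without, and of Magohb, a core gene of the exon junction complex, with 1.66 and 1.17. Their ratios were 1.31 (1.19 to 1.46) and 1.42 (1.22 to 1.67), and 27.1% and 30.2% of their exonic bases are shared with other genes. The lowest were Snupn, which imports snRNPs into the nucleus, at 0.858 (0.731 to 1.01), and Bcas2, of the Prp19 complex, at 0.869 (0.831 to 0.908).

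Of the 5 genes of the exon junction complex, which marks spliced mRNAs, 3 were higher in DCA. Beside Magohb, its paralogue Magoh (22.0 and 18.6 FPKM) had a ratio of 1.18 (1.09 to 1.27), Casc3 had 1.005 (0.966 to 1.046), and Rbm8a and Eif4a3 had 0.889 (0.842 to 0.938) and 0.902 (0.864 to 0.942). Of the 6 SR protein kinase genes past the filter 4 were higher, with a median ratio of 1.02. Of 15 genes of snRNP assembly and transport 9 were higher, also at 1.02, and of 40 other RNA-binding splicing regulators 18, at 0.991. Magoh, Casc3, Rbm8a and Eif4a3 were singled out after their values were seen.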

How the data were processed

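The authors deposited FPKM for 15576 genes in 1 DCA and 1 NC library. The submitters' processing notes name HTSeq 0.6.0, DESeq2 3.0, STAR 2.5.0c, bedtools 2.17.0 and Picard 1.126, with the build GRCm38. Neither their roles, the strand setting nor any filter is given in the sources used here. Libraries were grouped by title. Of the identifiers, 15548 were found in GENCODE vM21 (GRCm38), the source of coordinates and exon overlaps (by position, either strand).

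With the summed length of a gene's transcripts, the FPKM of 96.6% of 12491 genes under 5000 reads came out whole within 0.05 of a read in both libraries, including all 37 such splicing factor genes. Of all 76 genes 74 were whole. The others, among them Snrpb, were up to 0.467 of a read off and were rounded. This gave the read totals. The median half-width of the members' 95% counting intervals was 3.74% of the ratio.

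The measure was log2(FPKM + 1), DCA minus NC, for genes whose FPKM averaged 1 or more. The limits of 1.1-fold and, for naming, 1.2-fold apply to FPKM + 1. There were 1 library per group and hence no tests. Named were, in each group and among the other splicing genes, the 2 highest and 2 lowest, all members beyond 1.2-fold and 36 genes fixed by name (35 found). Further members were named to describe each group. One gene that enters all counts over genes is not reported by name here, and its pair with a divergent neighbour was left out. The members and lists were chosen with earlier results of these data known. Copies were searched with BLAST 2.17.0. Scripts ran in Python 3.11.15 with pandas 2.3.3 and scipy 1.17.1 and were tested on simulated data. Alternatives were other pseudocounts, filters and scalings, means for medians, and leaving out overlapping genes and, chosen after seeing the data, genes with near-identical copies.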

Additional observations from a re-analysis of the deposited data

How the results depend on the processing

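No paired analysis was possible because the groups hold 1 library each and share a single replicate number. The median differences are small, and many moved by over 1.5 times or changed sign. Without genes with overlapping exons they were 0.038 for all members (0.015 as reported), 0.061 for Snrp (0.024), 0.038 for Sf3 (0.0008), 0.025 for Lsm (0.047), 0.0040 for Srsf (0.021), 0.015 for Hnrnp (-0.0049) and 0.021 for the other splicing genes (0.0052). With each library scaled to the same FPKM sum of 1e6, which also lowers the weight of the pseudocount, they were 0.0021 for all members, 0.014 for Snrp, -0.012 for Sf3, 0.0085 for Srsf, -0.019 for Hnrnp and -0.0075 for the other splicing genes. With DCA divided by the median ratio they were 0.0066 for all members, -0.0069 for Sf3, 0.013 for Srsf, -0.012 for Hnrnp and -0.0024 for the other splicing genes. The share of higher genes was then 47.8% of all genes with equal sums and 50% with the median ratio, and 39 of 74 members in both, with Sf3 at 4 of 9 and Srsf at 5 of 10. Means in place of medians were 0.016 for Sf3, -0.00075 for Hnrnp, 0.018 for Prpf (0.038) and 0.014 for the other splicing genes. With pseudocount 5 the medians were 0.028 for Lsm and -0.0032 for Hnrnp, and where the FPKM averaged 5 or more 0.021 for Lsm and 0.013 for the other splicing genes, which stood at 0.0033 with no filter. Without genes with a near-identical copy, an alternative added after seeing the data, they were 0.019 for Sf3 and 0.038 for Srsf. Members at least 1.1-fold higher numbered 7 with pseudocount 0.1, 1 with pseudocount 5 and 1 where the FPKM averaged 5 or more, against 4, beside 12.7%, 2.90% and 6.99% of all genes. Those at least 1.1-fold lower numbered 2 with pseudocount 0.1 and 3 with equal FPKM sums (7.93% and 9.09% of all genes), and 0 without overlapping genes or without copies, against 1, since both leave out Snrpf. No replicate could be left out. For the 52 named genes there were 338 values under the alternatives. Leaving the filter off (52 values), raising it to 5 FPKM (42) and leaving out overlapping genes (36) cannot alter a gene's value. Under the other pseudocounts and scalings, no value differed from the reported one by more than the gene's counting error, and 2 genes changed sign. This limit follows the width of the counting interval, so it is loose for genes with few reads.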
